A study of Mus musculus with 7 samples.

Results

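The expression of 10 genes of uterine natural killer (NK) cells and of cytotoxic granules was followed through 7 uterine libraries: Gzma, Gzmb, Prf1, Ncr1, Klrb1c, Klrd1, Nkg7, Eomes, Tbx21 and Il15. They were taken by symbol, 10 of the 23282 gene rows in the tables, with earlier results of these data known. The tissue was the uterus of C57BL/6 female mice, 6 weeks old by the study's methods, that carried no engineered allele. The chemokine CXCL12 was put into one horn at 100 ng in 30 µl, and the opposite horn received saline. The groups were saline (n = 2), CXCL12 Day 3 (n = 2) and CXCL12 Day 8 (n = 3), where the day is the time after the infusion. No day is given for the saline libraries in the labels, so the time since infusion cannot be told apart from CXCL12 in a comparison with saline. Nothing in the labels ties a saline library to the CXCL12 horn of the same mouse or says whether each library is 1 animal, so the p-values measure the spread between libraries, which may be technical in part. RNA was read by 3′ mRNA sequencing, in which each transcript is counted near its poly(A) tail.

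NK cells are innate lymphocytes that kill target cells by releasing granules holding perforin, which opens membranes, and granzymes, serine proteases that act inside the target. The uterus holds a resident NK population that expands in the decidua of pregnancy, where it is known for secreting factors that act on the spiral arteries more than for killing. The cytokine IL-15, presented by stromal and myeloid cells on its own receptor chain, keeps NK cells alive, and the T-box transcription factors Eomes and T-bet (Tbx21) set their maturation.

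The stretches around the transcription starts of Gzmb, Ncr1 and Nkg7 are printed to show the DNA in front of a granzyme, a receptor and a granule gene that were higher in the same Day 8 libraries. Each runs from 250 bases before to 50 bases after the start, 5′ to 3′ on the gene's strand, from RefSeq on GRCm38.p6. Gzmb lies at chr14:56262285-56262584 on the minus strand, Ncr1 at chr7:4337465-4337764 on the plus strand and Nkg7 at chr7:43436888-43437187 on the plus strand. Capitals mark the T-box core GGTGTGA or its reverse complement TCACACC, and the Runx core TGTGGT or its reverse complement ACCACA.
Gzmb: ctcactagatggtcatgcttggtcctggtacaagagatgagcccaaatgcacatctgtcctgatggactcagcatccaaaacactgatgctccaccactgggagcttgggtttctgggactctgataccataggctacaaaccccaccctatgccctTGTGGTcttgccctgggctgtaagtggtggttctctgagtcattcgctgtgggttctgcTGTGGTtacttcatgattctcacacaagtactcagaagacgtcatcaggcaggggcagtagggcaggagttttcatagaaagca
Ncr1: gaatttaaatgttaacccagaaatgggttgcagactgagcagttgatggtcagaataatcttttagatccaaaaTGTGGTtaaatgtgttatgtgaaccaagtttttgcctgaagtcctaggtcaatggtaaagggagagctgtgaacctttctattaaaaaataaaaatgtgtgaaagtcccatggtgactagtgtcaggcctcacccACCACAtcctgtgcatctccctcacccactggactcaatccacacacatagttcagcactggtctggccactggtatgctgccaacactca
Nkg7: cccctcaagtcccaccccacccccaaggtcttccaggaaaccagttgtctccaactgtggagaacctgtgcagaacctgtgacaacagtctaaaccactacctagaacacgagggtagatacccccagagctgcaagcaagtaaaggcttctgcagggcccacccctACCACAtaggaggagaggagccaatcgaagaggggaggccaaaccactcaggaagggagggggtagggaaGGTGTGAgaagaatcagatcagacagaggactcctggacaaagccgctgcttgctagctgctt

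A promoter sequence was matched for 8 of the 10 genes, all but Klrd1 and Il15. Among the 8, the T-box core was found in 1, in Nkg7 with its first base at -13 from the start, while 3.98% of all 32851 promoters in the table hold it. The Runx core, a motif added after the values had been seen, was found in 6 of the 8, against 16.8% of all promoters. Its first bases lay at -93 and -34 in Gzmb, at -50 in Gzma, at -130 in Prf1, at -176 and -41 in Ncr1, at -89 in Klrb1c and at -83 in Nkg7. These are matches of letters in the window and no binding was measured. The T-box and Runx cores do not overlap each other in these promoters.

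Library totals ran from 6908790 to 12308982 counts in the 6 libraries deposited as counts. Day 3 replicate 1 was deposited as log2(normalized count + 1), from which reads were estimated. Levels are given as counts per library size, scaled by the trimmed mean of M-values (TMM-scaled CPM), and 3 counts, taken as the floor, equal 0.246 to 0.363 CPM. Intervals and floors cover counting error only. Saline replicate 1 had the lowest correlations with the other libraries, at a Pearson correlation of log2 values of 0.899 to 0.917 across 14876 genes. The Day 3 pair reached 0.986. Day 8 replicates 2 and 3 were nearly as far from the Day 3 libraries, at 0.920 to 0.929, but correlated with each other at 0.961. Day 8 replicate 1 correlated with the Day 3 libraries at 0.968 and 0.969 and with Day 8 replicates 2 and 3 at 0.922 and 0.924, and the name of its table carries Day 3. It was kept at Day 8 as labelled. Fits that count it with Day 3 use a grouping prompted in part by these same values, so their p-values are not an independent test. For called genes, a call lost without it or without saline replicate 1 is stated. The uterine smooth muscle and stromal genes Acta2 and Vim had at least 9085 and 3115 counts in every library.

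Of the 10 genes, 4 were higher at Day 8 than in saline by a fold of 2 at an unadjusted P under 0.05, the limits used here for a call. They were Gzma, Gzmb, Ncr1 and Klrb1c, with fitted folds of 3.34, 6.92, 5.84 and 2.64. The filter on low counts was passed by 9 of the 10, and none of these was called lower. Over all 15388 genes tested, 1.53% were called higher by the same rule, 1.42% lower and 2.94% in either direction. By edgeR, the count-based test used for Day 8, no gene of the 10 or of the whole table passed an adjusted limit of 0.1, and the smallest adjusted p was 0.956. The unadjusted limits were passed by 453 of all genes, and DESeq2, another count test, called 49 genes at the adjusted limit. The median log2 fold change of the 9 genes was 1.30, against -0.01 over all genes tested, and 8 of 9 lay above 0, against 49.3% of all genes.

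The libraries of one group were far from alike. For 7 of the 10 genes the highest level was in Day 8 replicate 3, and for 6 the lowest was in saline replicate 1. Without Day 8 replicate 1, 5 of the genes were called higher, and the share of all genes called higher was 3.44%. Without saline replicate 1 the number was 1, against 0.758% of all genes, and without Day 8 replicate 3 it was also 1, against 0.765%. It was 2 without Day 8 replicate 2, against 1.15%.

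**Figure D1:**
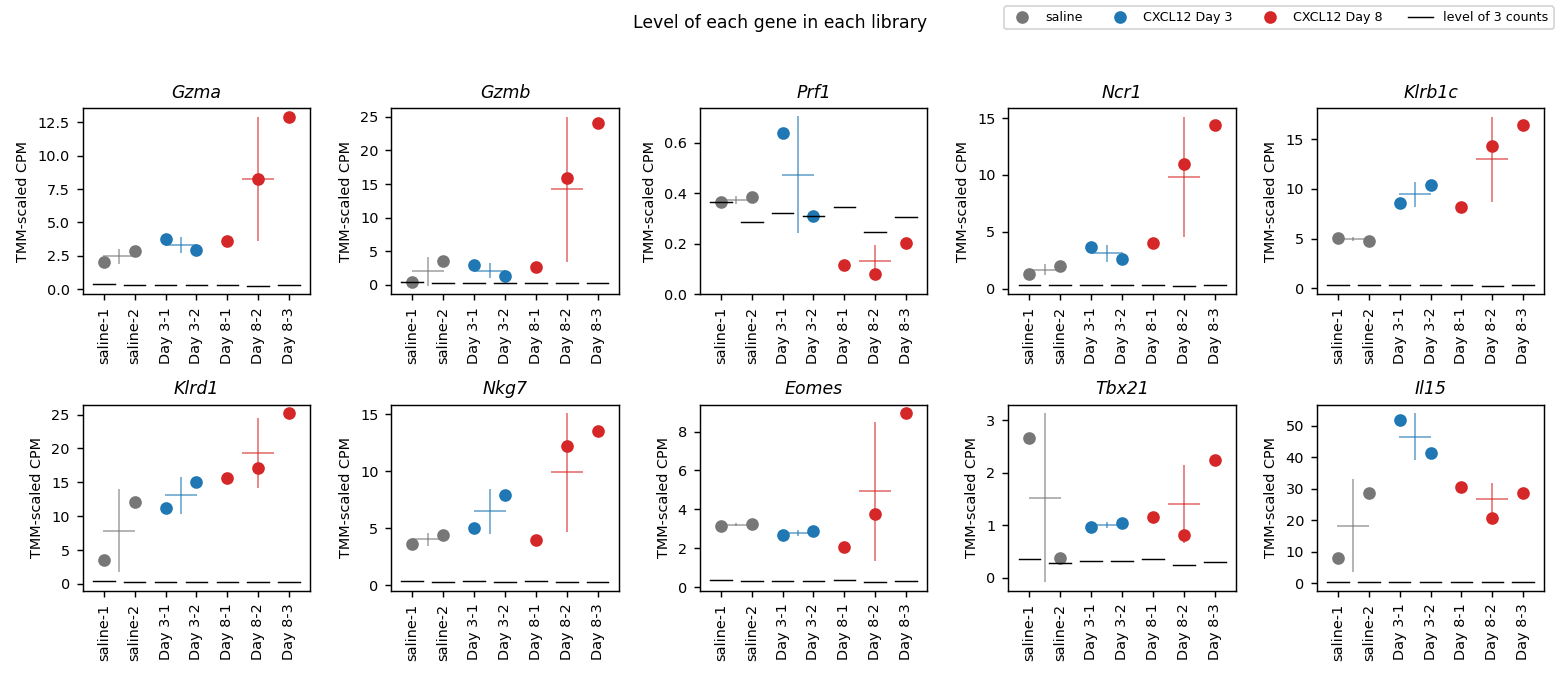
TMM-scaled CPM of each of the 10 genes in each library, 1 panel a gene with its own axis. Points are libraries, the horizontal line and bar are the group's mean and SD (n = 2, 2 and 3), and the short black lines mark the level of 3 counts. Day 8 replicates 2 and 3 stand above the other libraries for Gzma, Gzmb, Ncr1, Klrb1c and Nkg7, while Prf1 stays near the floor.

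Among the granule effectors, Gzma (chr13:113093824-113100981), a trypsin-like granzyme, had 17 and 30 counts in saline, 35 (estimated) and 28 at Day 3, and 31, 101 and 127 at Day 8. Scaled for depth, these were 2.06 and 2.87 CPM, 3.76 and 2.90 CPM, and 3.59, 8.29 and 12.9 CPM. All 3 Day 8 libraries lay above both saline libraries, though Day 8 replicate 1 was inside the Day 3 range. The log2 fold change at Day 8 against saline was 1.74 ± 0.64 (SE, edgeR, adjusted p = 0.956). Without Day 8 replicate 1 it was 2.10 and still called, and the call was lost without saline replicate 1 (1.53), saline replicate 2 (2.01), Day 8 replicate 2 (1.75) or Day 8 replicate 3 (1.26). At Day 3 against saline it was 0.55 ± 0.58 by limma (adjusted p = 0.746), and at Day 8 against Day 3 it was 1.07 ± 0.53 (adjusted p = 0.715). With Day 8 replicate 1 counted among the Day 3 libraries, the last value was 1.46 and passed the adjusted limit (limma, adjusted p = 0.0734). In that grouping 1026 of all 14850 genes tested passed it.

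Gzmb (chr14:56258836-56262334), the granzyme that cleaves after aspartate and starts the caspase cascade, had the widest range of the 10 in fold terms. Its counts were 4 and 37 in saline, 27 (estimated) and 13 at Day 3, and 23, 193 and 237 at Day 8. In CPM these were 0.484 and 3.54, 2.91 and 1.35, and 2.66, 15.8 and 24.1. The Day 8 and saline groups overlapped, since Day 8 replicate 1 lay under saline replicate 2. The group means were 2.01 ± 2.16 CPM in saline (SD, n = 2), 2.13 ± 1.10 CPM at Day 3 (SD, n = 2) and 14.2 ± 10.8 CPM at Day 8 (SD, n = 3). The fitted log2 fold change at Day 8 against saline was 2.79 ± 1.09 (SE, edgeR, adjusted p = 0.956). It was 3.27 without Day 8 replicate 1 and 4.85 without saline replicate 2, and the call was lost without saline replicate 1 (2.01), Day 8 replicate 2 (2.71) or Day 8 replicate 3 (2.17). Against Day 3 the difference was 2.24 ± 1.07 by limma (adjusted p = 0.703), and that between Day 3 and saline was 0.79 ± 1.17 (adjusted p = 0.817). Counting Day 8 replicate 1 among the Day 3 libraries gave 3.00 against Day 3, past the adjusted limit (limma, adjusted p = 0.0751). So did 1026 of all 14850 genes tested in that grouping.

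Within the granzyme A and B reads, the part from Gzmb also differed between libraries. It was 65.6% in Day 8 replicate 2 (95% Wilson interval 60.0 to 70.8) and 65.1% in replicate 3 (60.1 to 69.8), against 42.6% in Day 8 replicate 1 (30.3 to 55.8). At Day 3 it was 43.5% (31.9 to 55.9) and 31.7% (19.6 to 47.0), and in saline 19.0% (7.67 to 40.0) and 55.2% (43.4 to 66.5). The share in saline replicate 2 overlaps those of both higher Day 8 libraries, so the share did not separate Day 8 from saline.

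Prf1 (chr10:61297751-61304684), which encodes perforin, was at the edge of detection throughout. It had 3 and 4 counts in saline, 6 (estimated) and 3 at Day 3, and 1, 1 and 2 at Day 8, and it was the 1 gene of the 10 that failed the filter. All 3 Day 8 libraries were under the level of 3 counts, so differences in perforin rest on very few reads. With no filter, limma put Day 8 below Day 3 by -1.36 ± 0.46 on the log2(value + 1) scale, past the fold and P limits (SE, adjusted p = 0.681), and in that fit the call of Ncr1 was lost. The difference from saline without a filter was -1.39 ± 1.40 at Day 8 (SE, edgeR) and 0.62 ± 0.50 at Day 3 (SE, limma), and neither passed. The libraries with the most granzyme counts held no more than 2 counts of perforin.

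Among the receptors, Ncr1 (chr7:4337715-4345184) had the largest fitted fold. It encodes NKp46, an activating receptor that marks NK cells and related innate lymphoid cells. Its counts were 11 and 21 in saline, 34 (estimated) and 25 at Day 3, and 35, 134 and 142 at Day 8. These gave 1.33 and 2.01 CPM, 3.65 and 2.59 CPM, and 4.05, 11.0 and 14.4 CPM. None of the 3 groups overlapped another, and the means were in the order saline 1.67 ± 0.48 CPM (SD, n = 2), Day 3 3.12 ± 0.75 CPM (SD, n = 2) and Day 8 9.83 ± 5.29 CPM (SD, n = 3). The log2 fold change was 2.55 ± 0.67 at Day 8 against saline (SE, edgeR, adjusted p = 0.956). Against Day 3 the difference was 1.40 ± 0.56 (SE, limma, adjusted p = 0.696). The Day 3 difference from saline, 1.03 ± 0.61, did not pass (limma, adjusted p = 0.619). Leaving out single libraries kept the Day 8 value against saline between 2.16 and 2.91, with the highest value without Day 8 replicate 1, and it was not called without saline replicate 1 (2.29). The call against Day 3 was lost without either Day 3 library (1.60 and 1.19), without Day 8 replicate 2 (1.28) or without Day 8 replicate 3 (1.05). Against saline its adjusted p with DESeq2 was 0.0991. Against Day 3 the value was 1.76 with Day 8 replicate 1 counted among the Day 3 libraries (limma, adjusted p = 0.0524), a grouping in which 6% of all genes were called higher.

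Klrb1c (chr6:128778485-128788641), which encodes the NK1.1 antigen of this mouse strain, was more even. It had 42 and 50 counts in saline, 80 (estimated) and 100 at Day 3, and 71, 174 and 162 at Day 8. Its levels were 5.08 and 4.79 CPM, 8.59 and 10.4 CPM, and 8.22, 14.3 and 16.5 CPM, so every CXCL12 library lay above both saline libraries. At Day 8 against saline the log2 fold change was 1.40 ± 0.43 (SE, edgeR, adjusted p = 0.956). Without Day 8 replicate 1 it was 1.64, and the call was lost without saline replicate 2 (1.36) or Day 8 replicate 3 (1.19). At Day 3 the value was 0.97 ± 0.40 (SE, limma, adjusted p = 0.619), which stayed under a fold of 2. The Day 8 and Day 3 libraries overlapped, with a difference of 0.38 ± 0.37 (limma, adjusted p = 0.822). Of the 50-base words in the last 500 bases of its annotated transcripts, 17.8% are shared with Klrb1a, Klrb1b, Klrb1-ps1 or Gm44511, so its reads may be divided among these copies. The other 9 genes shared none with another gene.

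Klrd1 (chr6:129588092-129598775) encodes CD94, the partner chain of the NKG2 receptors. Its counts were 29 and 127 in saline, 104 (estimated) and 145 at Day 3, and 135, 209 and 248 at Day 8, or 3.51 and 12.2 CPM, 11.2 and 15.0 CPM, and 15.6, 17.2 and 25.2 CPM. The Day 8 libraries all lay above the other groups, but the saline libraries were far from each other. The Day 8 value against saline, 1.30 ± 0.56 on the log2 scale, missed the P limit (SE, edgeR, adjusted p = 0.956), and it was 0.67 without saline replicate 1 and 2.46, past both limits, without saline replicate 2. At Day 3 it was 1.00 ± 0.57 against saline (SE, limma, adjusted p = 0.619). That value was 0.12 without saline replicate 1, and 1.89 without saline replicate 2, when it passed the adjusted limit (limma, adjusted p = 0.045) and 10.4% of all genes were called higher. Day 8 differed from Day 3 by 0.54 ± 0.52 (adjusted p = 0.814).

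Nkg7 (chr7:43437138-43438246), a granule membrane protein of cytotoxic lymphocytes, had 30 and 46 counts in saline, 47 (estimated) and 76 at Day 3, and 34, 149 and 133 at Day 8. In CPM these were 3.63 and 4.41, 5.05 and 7.88, and 3.93, 12.2 and 13.5, so Day 8 replicate 1 sat between the saline libraries. Its log2 fold change at Day 8 was 1.30 ± 0.59 (SE, edgeR, adjusted p = 0.956), and 1.68 without Day 8 replicate 1, when it passed both limits. The Day 3 value was 0.72 ± 0.58 (SE, limma, adjusted p = 0.676), and Day 8 differed from Day 3 by 0.44 ± 0.53 (adjusted p = 0.847).

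**Figure D2:**
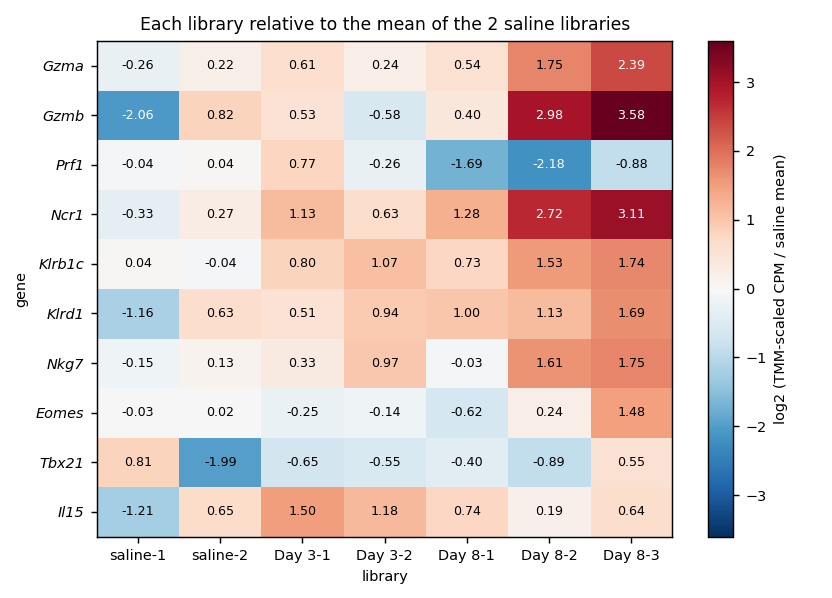
Log2 of each library's TMM-scaled CPM over the mean of the 2 saline libraries, with genes in rows and libraries in columns. Red is above and blue below the saline mean. Gzmb reaches 3.58 and Ncr1 3.11 in Day 8 replicate 3, while Day 8 replicate 1 lies between -1.69 (Prf1) and 1.28 (Ncr1).

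The transcription factors did not pass the test in any comparison. Eomes (chr9:118478186-118486132) had 26 and 34 counts in saline, 25 (estimated) and 28 at Day 3, and 18, 46 and 88 at Day 8. In CPM the groups were 3.15 and 3.26, 2.69 and 2.90, and 2.08, 3.78 and 8.95, so the Day 8 mean rested on replicate 3. The log2 fold change at Day 8 against saline was 0.63 ± 0.69 (SE, edgeR, adjusted p = 0.956), and -0.12 without Day 8 replicate 3. At Day 3 it was -0.08 ± 0.64 (SE, limma, adjusted p = 0.966), and Day 8 differed from Day 3 by 0.50 ± 0.58 (adjusted p = 0.843).

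Tbx21 (chr11:97098007-97115331) had 22 and 4 counts in saline, 9 (estimated) and 10 at Day 3, and 10, 10 and 22 at Day 8. Its CPM ran from 0.383 in saline replicate 2 to 2.66 in saline replicate 1, a spread within saline that held every other library. The log2 fold change at Day 8 was -0.10 ± 0.98 (SE, edgeR, adjusted p = 0.996), and its sign turned with the tool and with the library left out. At Day 3 it was 0.49 ± 1.15 (SE, limma, adjusted p = 0.889), with a negative sign when quantile normalization was omitted, and Day 8 differed from Day 3 by 0.19 ± 1.05 (adjusted p = 0.969).

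Il15 (chr8:82331624-82403252) followed another order. It had 65 and 299 counts in saline, 481 (estimated) and 398 at Day 3, and 264, 253 and 280 at Day 8. The levels were 7.87 and 28.6 CPM in saline, 51.7 and 41.3 CPM at Day 3, and 30.5, 20.8 and 28.5 CPM at Day 8. Both Day 3 libraries lay above all others, and the Day 8 libraries overlapped saline. The means were 18.3 ± 14.7 CPM in saline (SD, n = 2), 46.5 ± 7.42 CPM at Day 3 (SD, n = 2) and 26.6 ± 5.15 CPM at Day 8 (SD, n = 3). Il15 was the 1 gene of 9 called at Day 3 against saline, where 1.99% of 14850 genes were called higher, 2.63% lower and 4.62% in either direction. It was higher by 1.54 ± 0.53 on the log2 scale (SE, limma, adjusted p = 0.619). The call was lost without saline replicate 1 (0.66), Day 3 replicate 1 (1.41) or Day 3 replicate 2 (1.66), and the value was 2.44 without saline replicate 2 (limma, adjusted p = 0.0156). At Day 8 the difference from saline was 0.54 ± 0.53 (SE, edgeR, adjusted p = 0.956), and it ran from -0.10 to 1.76 with single libraries left out. The difference between Day 8 and Day 3 was -0.74 ± 0.49 (SE, limma, adjusted p = 0.745).

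At Day 3 against saline, the 9 genes had a median log2 fold change of 0.79, against 0.01 over all genes tested, and 8 of 9 lay above 0, against 50.8%. Among them, 5 had Day 3 libraries wholly above saline and 1, Eomes, wholly below, where 26.8% and 21.8% of all genes were so in groups of 2 libraries. At Day 8 against Day 3 the median was 0.50, against 0.00, with 8 of 9 above 0 against 50.3%. Ncr1 was the 1 gene called, where 2.2% of all genes were called higher, 2.35% lower and 4.55% in either direction. Klrd1 and Ncr1 were higher and Il15 lower without overlap, against 13.8% and 18.9% of genes. At Day 8 against saline, 4 of the 9 were higher without overlap (Gzma, Ncr1, Klrb1c and Klrd1), against 9.07% of all genes, and none lower, against 10.2%. The 3 comparisons share libraries, so their values are not independent of one another. In bulk tissue, more cells of a type and more RNA per cell cannot be told apart.

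**Figure D3:**
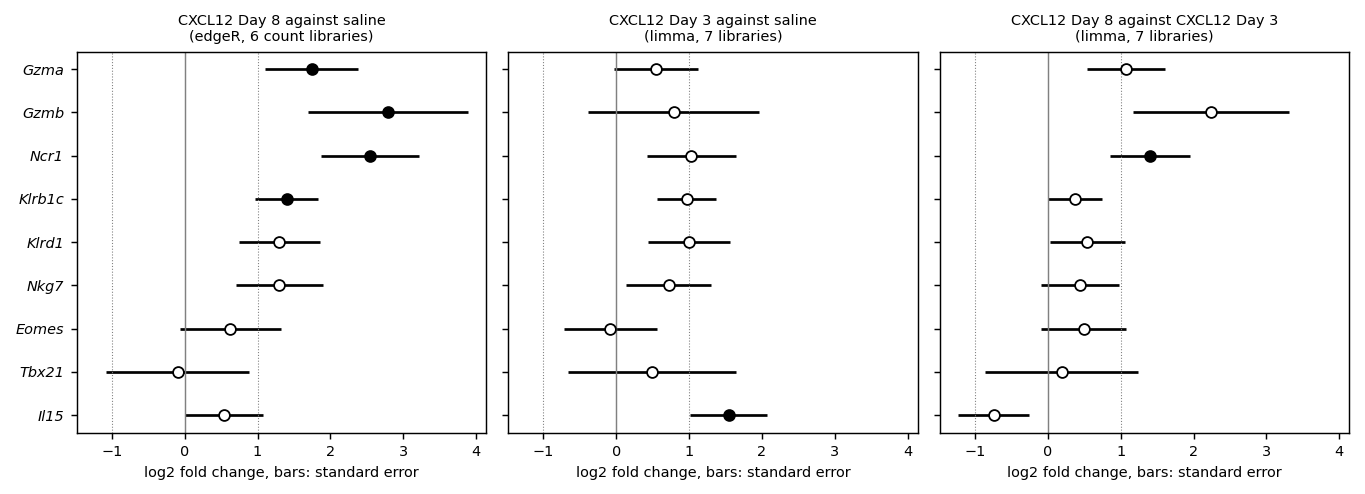
Log2 fold change and standard error of the 9 tested genes in the 3 comparisons, by edgeR for Day 8 against saline and by limma for the others. Filled points are past a fold of 2 (dotted lines) at an unadjusted P of 0.05. They are Gzma, Gzmb, Ncr1 and Klrb1c at Day 8, Il15 at Day 3 and Ncr1 at Day 8 against Day 3.

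**Figure D4:**
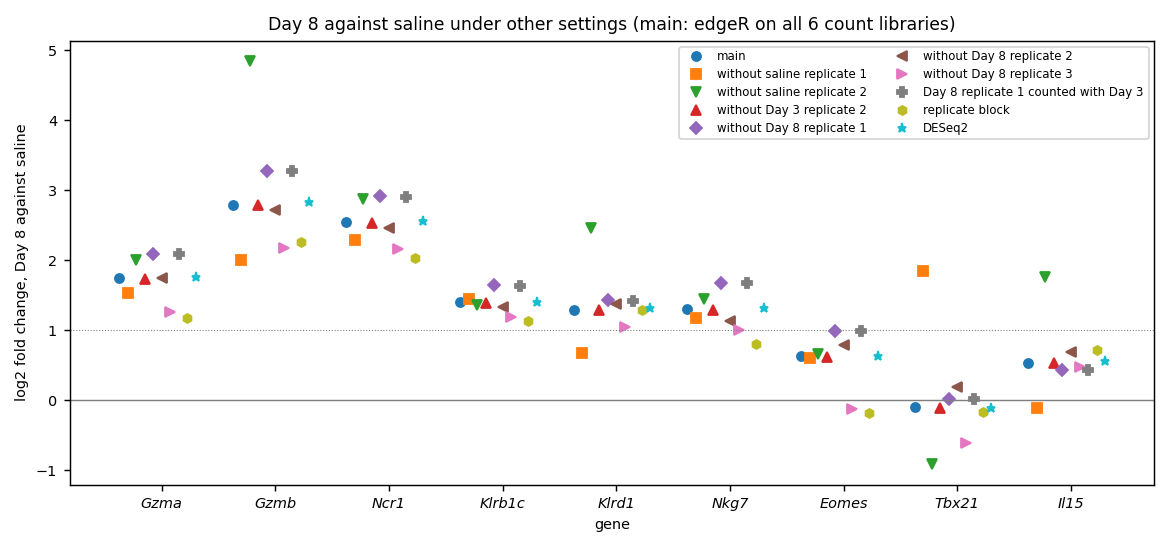
Log2 fold change at Day 8 against saline of the 9 tested genes under the main edgeR fit and 9 other settings, each a symbol. The values of Gzma, Gzmb, Ncr1, Klrb1c, Klrd1 and Nkg7 are all above 0, whereas those of Eomes, Tbx21 and Il15 fall on both sides of it.

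In the lists that follow, ± gives the SE of a log2 fold change, from edgeR at Day 8 against saline and from limma otherwise, and no gene passed an adjusted limit of 0.1 with all libraries. Values with a library left out were computed for these lists after the data had been seen. Of 24 other NK cell receptors and surface genes tested, 4 were called higher at Day 8 against saline and none lower, with a median log2 fold change of 0.77, where 1.53% of all genes were called higher and the median was -0.01. They were Klrg1, an inhibitory receptor of mature NK cells, the lectin-like receptor Klre1 and the Ly49 receptors Klra7 and Klra9. Klrg1 had 17 and 15 counts in saline, 31 (estimated) and 27 at Day 3, and 35, 113 and 119 at Day 8, and rose by 2.28 ± 0.62 on the log2 scale. It was also higher at Day 8 than at Day 3, by 1.25 ± 0.51, a call lost without any one of the Day 3 libraries or Day 8 replicate 2 or 3 (0.94 to 1.33). Klre1 had 9 and 59 counts in saline, 88 (estimated) and 101 at Day 3, and 95, 145 and 259 at Day 8. It passed at both times, at 2.27 ± 0.75 at Day 8 and 2.05 ± 0.75 at Day 3, but without saline replicate 1 the values were 1.54 and 0.88 and neither was called. Of the 4, Klrg1 and Klra7 kept the Day 8 call without saline replicate 1, at 2.56 and 1.34, and all 4 kept it without Day 8 replicate 1. Klrg1 lost it without saline replicate 2 (2.04), Klre1 without Day 8 replicate 3 (1.74), and Klra9 without any one saline library or Day 8 replicate 2 or 3. Klra7 and Klra9 share 22.1% and 49.4% of their 3′ words with other Ly49 genes, so their log2 fold changes of 1.68 and 1.61 may mix copies. Klra7 was also higher at Day 8 than at Day 3, by 1.19 ± 0.41, a call lost without Day 3 replicate 2 (0.93) or Day 8 replicate 3 (1.06). The most abundant of the list, Fcgr3, an Fc receptor that macrophages also carry, had a log2 fold change of -0.08 ± 0.46, and Klra8 had 1.17 ± 0.52.

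Of the secreted NK products, 1 of 8 tested was called at Day 8 against saline, where 1.53% of all genes were called higher. Xcl1, a chemokine that draws cross-presenting dendritic cells, had 32 and 129 counts in saline, 208 (estimated) and 188 at Day 3, and 163, 485 and 558 at Day 8. Every CXCL12 library lay above both saline libraries. The log2 fold change was 2.24 ± 0.65 at Day 8 and 1.59 ± 0.63 at Day 3, and without saline replicate 1 it was 1.64 and 0.77, with no call at either time. Ccl5, a chemokine of NK and T cells, was higher at Day 8 than at Day 3, by 1.88 ± 0.70, but its saline libraries, with 121 and 27 counts, spanned the Day 3 values, and the call was lost without any one of the Day 3 libraries or Day 8 replicate 2 or 3 (1.63 to 1.92). Tnfsf10 (TRAIL), a death ligand, had a log2 fold change of 0.44 ± 0.36 at Day 8. Interferon gamma (Ifng) had 10 counts or fewer in every library.

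None of the 3 other granzymes tested was called. Gzmc, like Gzma and Gzmb, was highest in Day 8 replicates 2 and 3, with 24 and 34 counts in saline, 28 (estimated) and 36 at Day 3, and 20, 117 and 114 at Day 8, but its log2 fold change of 1.35 ± 0.71 did not pass. Gzmf, which shares part of its 3′ words with Gzmd and Gzmg, had 31 counts or fewer in each library, and Gzmk had 0 in all 7. Among 12 genes of granule assembly and granzyme control, none passed at Day 8 against saline, and Unc13d, which primes granules for release, was higher at Day 8 than at Day 3 by 1.71 ± 0.46. Srgn, the proteoglycan core of the granule that many other cells also make, differed by 0.76 ± 0.58 at Day 8 and by 1.29 ± 0.57 at Day 3. The lysosomal membrane protein Lamp1 had -0.12 ± 0.28 at Day 8.

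Of 9 genes of the IL-15 receptor and its signalling, none was called at Day 8 against saline, and the median log2 fold change was 0.29. The receptor chain Il2rb had 106 and 64 counts in saline, 108 (estimated) and 76 at Day 3, and 70, 331 and 239 at Day 8, and Il15ra had 21 and 52, 57 and 49, and 44, 135 and 101. In both, Day 8 replicates 2 and 3 were the highest libraries. The kinase Jak1 was called lower at Day 3 than in saline, at -1.0 ± 0.40, but was -0.45 and not called without saline replicate 1, and the survival factor Mcl1 had -0.02 ± 0.25 at Day 8. Of 10 transcription factors of NK and innate lymphoid cells, Nfil3, a factor in NK cell development, was higher at Day 8 by 1.72 ± 0.70, with 76 and 56 counts in saline, 69 (estimated) and 89 at Day 3, and 61, 332 and 365 at Day 8. It was not called without either saline library (2.15 and 1.38), Day 8 replicate 2 (1.62) or Day 8 replicate 3 (1.24). Tox was lower at Day 3, by -1.89 ± 0.75, where 1 saline library had 81 counts and the other 21, and was -0.72 and not called without saline replicate 1. Id2 and Zeb2, the most abundant of the list, had 0.21 ± 0.27 and -0.75 ± 0.42 at Day 8. No chemokine receptor of the 6 tested passed in any comparison. Cx3cr1 and Ccr2, the highest of them, had -0.23 ± 0.57 and 0.17 ± 0.49 at Day 8, and Cxcr4, the receptor of CXCL12, had 80 to 142 counts in all libraries.

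Markers of other cells were read in the same libraries. Of the 14 T cell markers, 7 were tested at Day 8 against saline, and none was called in any comparison, and their summed level was 18.6 to 31.2 CPM in saline, 25.2 to 26.0 CPM at Day 3 and 23.5 to 28.0 CPM at Day 8. The T cell genes Cd3e and Cd8a had at most 3 and 6 counts in any library. Lck and Foxp3, the highest of the list, had log2 fold changes of 0.23 ± 0.40 and 0.03 ± 0.39 at Day 8. They made up much of the sum, at 6.16 and 8.85 CPM (Lck) and 6.16 and 8.44 CPM (Foxp3) in Day 8 replicates 2 and 3. The sum therefore says little of the other T cell genes. At Day 8 against saline, Cd3g had 0.93 ± 1.10, Cd3d 0.11 ± 0.82, Cd28 0.17 ± 1.07, Cd247 -0.30 ± 0.78 and Cd4 -1.48 ± 1.12. Of 8 pan-leukocyte genes none passed at Day 8, with a summed level of 341.8 to 422.1 CPM in saline, 273.9 to 303.7 CPM at Day 3 and 269.7 to 477.9 CPM at Day 8. Cd52 had 0.74 ± 0.30 at Day 8, under a fold of 2, and Laptm5 was lower at Day 3 by -1.01 ± 0.33, a call lost without saline replicate 1 (-0.56). The Day 3 calls of Klre1, Xcl1, Tox, Jak1 and Laptm5 were also lost without either Day 3 library, and those of Tox and Jak1 without Day 8 replicate 1. Jak1 lay at the fold limit, and its call was lost without Day 8 replicate 2 (-0.999) or Day 8 replicate 3 (-0.995) as well. Of 5 B and plasma cell genes tested, Cd79b was lower at Day 8 than at Day 3 by -1.07 ± 0.41. That call was lost without either Day 3 library or Day 8 replicate 2 or 3 (-1.26 to -0.87). Jchain had 0.12 ± 0.36 at Day 8 against saline.

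The mast cell list was highest in Day 8 replicates 2 and 3, as were many of the NK genes. Its 9 genes summed to 103.7 and 104.0 CPM in saline, 92.7 and 81.4 CPM at Day 3 and 103.4, 260.0 and 438.7 CPM at Day 8, and all 7 tested had log2 fold changes above 0 at Day 8 against saline, against 49.3% of all genes. Of the 7, 1 was called, where 1.53% of all genes were called higher. The called gene was Hdc, histidine decarboxylase, an enzyme that uterine epithelium also makes, at 1.40 ± 0.58 with all libraries. It was not called without either saline library (1.48 and 1.32), Day 8 replicate 2 (1.49) or Day 8 replicate 3 (0.75). Hdc was also called higher at Day 8 than at Day 3, by 1.59 ± 0.52, a call lost without either Day 3 library (1.56 and 1.59). With Day 8 replicate 1 counted among the Day 3 libraries, that value was 1.96 and passed the adjusted limit (limma, adjusted p = 0.0193), as 1026 of all 14850 genes tested did. Hdc made up most of the sum, and the other 8 genes summed to 13.4 and 22.4 CPM in saline, 22.4 and 14.1 CPM at Day 3 and 10.3, 63.2 and 52.4 CPM at Day 8. Without Hdc the highest library was therefore Day 8 replicate 2. The mast cell carboxypeptidase Cpa3 had 20 and 62 counts in saline, 74 (estimated) and 39 at Day 3, and 9, 225 and 156 at Day 8, with 1.49 ± 1.04. Mast cells can also carry Gzmb, and their part in its level was not tested.

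Reads of adipose tissue, ovary and oviduct differed widely between libraries of 1 group, from 475.6 CPM in Day 8 replicate 3 to 4479 CPM in Day 8 replicate 2 for their 10 marker genes. The steroidogenic enzyme Cyp11a1, a marker of ovary, had 9247 counts in Day 8 replicate 2 and 1 in Day 8 replicate 3. Gzmb had 193 and 237 counts in these libraries, and Ncr1 had 134 and 142. Whether reads of other tissues bear on the NK genes was not tested. Ovgp1, the oviduct glycoprotein and the most abundant of the list, had 4326 and 5905 counts in saline, 6675 (estimated) and 7272 at Day 3, and 2718, 7964 and 2338 at Day 8, with -0.44 ± 0.44 at Day 8 against saline. Against saline at Day 8, the adipocyte genes Cfd, Adipoq, Fabp4 and Plin1 were lower, by -2.27, -2.69, -2.83 and -2.21 on the log2 scale. Fabp4 (-0.79) and Plin1 (-1.58) were not called without saline replicate 2. The steroidogenic genes Cyp17a1, Hsd3b1 and Cyp11a1 were lower at Day 3 than in saline, by -7.19, -10.4 and -6.86. The Cyp11a1 call was lost without either saline library, either Day 3 library or Day 8 replicate 1. That of Hsd3b1 was lost without saline replicate 2. At Day 8 against Day 3, Adipoq was lower (-1.87), and Cyp17a1 (4.39) and Hsd3b1 (7.94) were higher. None of them was called without Day 8 replicate 1 (-1.81, 4.64 and 7.67). Adipoq had 2645 (estimated) and 344 counts in the Day 3 libraries. Without Day 3 replicate 1 the values of the 3 genes were -0.46, 4.52 and 8.07, and without Day 3 replicate 2 they were -3.26, 3.98 and 7.53. Of 9 stromal progesterone-response and decidual genes tested none passed in any comparison, and the decidual prolactin Prl8a2 had 0 counts in every library. Nr2f2 and Pgr, the highest of that list, had -0.48 ± 0.47 and -0.85 ± 0.49 at Day 8. Des, an intermediate filament protein of smooth muscle and decidual stroma, was the 1 of 13 uterine genes called at Day 8 against saline, at 1.19 ± 0.49. Over all genes, 1.53% were called higher. Des was not called without either saline library (1.49 and 0.94), Day 8 replicate 2 (0.98) or Day 8 replicate 3 (0.99).

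**Figure D5:**
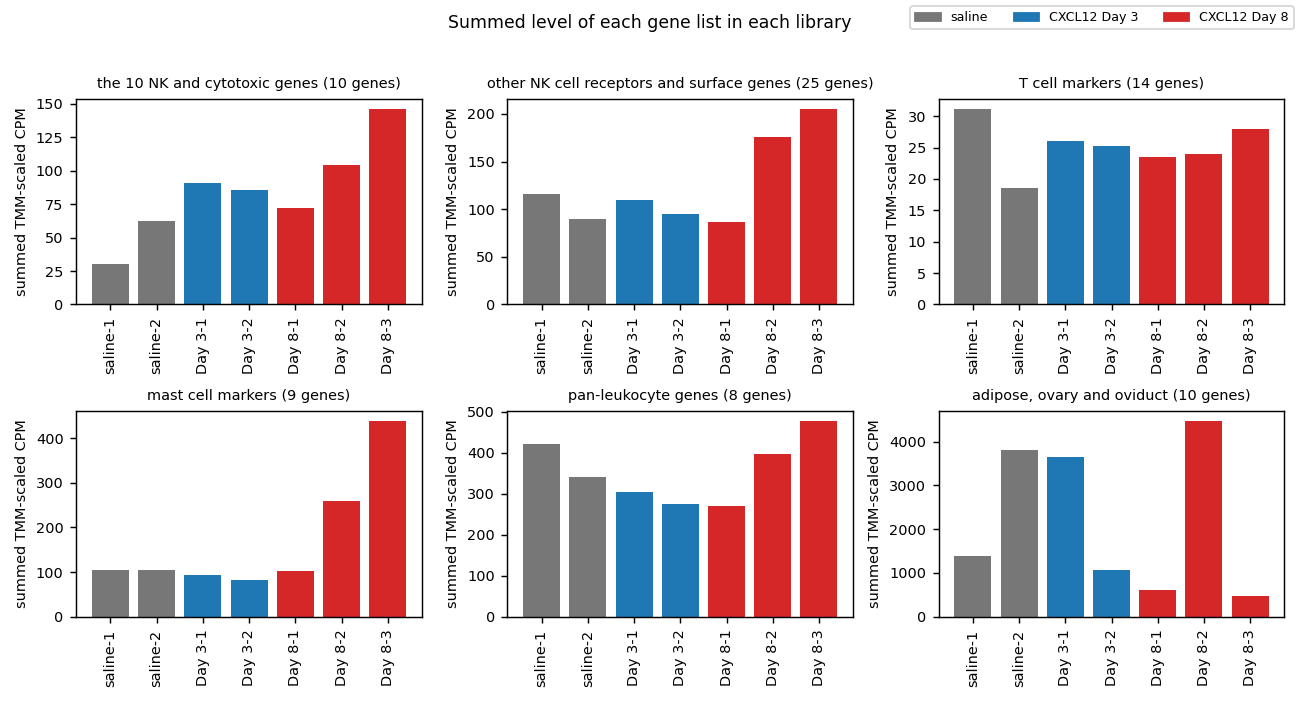
Summed TMM-scaled CPM of 6 gene lists in each library, with bars from 0 and an axis for each list. The 10 NK and cytotoxic genes reach 104.2 and 146.5 CPM in Day 8 replicates 2 and 3, against 30.1 and 62.5 CPM in saline. Their sums are 91.2 and 85.6 CPM at Day 3 and 72.0 CPM in Day 8 replicate 1. Il15 alone gives 28.6 CPM of the sum in saline replicate 2, and 51.7 and 41.3 CPM at Day 3. T cell markers, with Lck and Foxp3 much of the sum, run from 18.6 to 31.2 CPM. The adipose, ovary and oviduct genes run from 475.6 to 4479 CPM, both at Day 8.

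The profile averaged over the 9 tested genes, on the centred log2 scale, was -1.07 and -0.62 in saline, -0.06 and -0.07 at Day 3, and -0.07, 0.59 and 1.29 at Day 8. Of the 10 genes, Gzma lay closest to it, with a root mean square distance of 0.213 over the 7 libraries and 10 other genes closer. Klrb1c and Nkg7 followed at 0.260 and 0.318, and Gzmb and Tbx21 were the farthest at 1.17 and 1.16. The 5 other genes nearest to the profile were the growth factor Fgf9 (0.113), Plac8 (0.130), the methionine salvage enzyme Adi1 (0.139), E230016K23Rik (0.159) and the transcription factor Cebpd (0.171). Fgf9 had 40 and 88 counts in saline, 88 (estimated) and 104 at Day 3, and 90, 193 and 247 at Day 8, and Plac8 had 2112 and 4046, 5547 and 5683, and 5210, 12932 and 13940. This likeness over 7 libraries is a description and was not tested.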

How the data were processed

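Uterine RNA from 7 libraries was sequenced with the Lexogen QuantSeq 3′ kit. Per the study's methods, the authors aligned reads with Bowtie2 and counted unique and multiple alignments. The labels' processing notes name mm10 and hg19 and no tool versions. For 6 libraries the deposited values are raw counts per gene, and for Day 3 replicate 1 the deposited values are log2(normalized count + 1). In that table low values were whole multiples of 1.055 for 96.5% of 2914 values within 0.1 of a whole number (20.0% by chance), and reads were estimated by dividing by it. Day 8 was tested against saline with edgeR 4.0.16 (quasi-likelihood, TMM, filterByExpr, 6 count libraries in 3 groups, 3 residual degrees of freedom). The Day 3 comparisons used limma 3.58.1 with trend on quantile-normalized log2(value + 1) of all 7 libraries (at least 10 in at least 2 libraries), so those fold changes are on the log2(value + 1) scale and understate low genes. Calls used a fold of 2 and an unadjusted P of 0.05, and an adjusted p of 0.1 (Benjamini-Hochberg over all genes). DESeq2 1.42.0 served as an alternative. TMM factors ran from 0.891 to 1.20. Blank rows (2028 in 6 of the tables, 0 in the other) were dropped, and Rn45s took 9.36 to 13.0% of counts. The authors' rows hold 35 symbols on more than 1 row. The fits were tested on simulated data. Shared 3′ words were counted in the GENCODE transcripts.

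The genes and lists were chosen with earlier results of these data known. Named were the 10 genes, every gene of the other lists past both limits in a comparison, the highest 2 of each list by mean CPM, and the 5 genes nearest the mean profile. Genes outside this rule, named after their values were seen, are Ifng, Gzmk, Cxcr4, Cd3e, Cd8a, Cd3g, Cd3d, Cd28, Cd247, Cd4, Il2rb, Il15ra and Prl8a2, as was the Runx motif. Library totals are given in the report, and the low counts of Prf1, Tbx21 and Gzmb limit their precision.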

Additional observations from a re-analysis of the deposited data

How the results depend on the processing

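The values of the 10 genes were recomputed under other tools, filters, scalings, groupings and with each library left out. Outside the leave-one-out fits, 153 of the values kept their direction and side of the limit, 15 passed it, 4 lost it and 8 changed sign, and with single libraries left out the numbers were 144, 9, 17 and 10. The causes were not tested.

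At Day 8 against saline, 453 genes passed a fold of 2 and P of 0.05. Fitting the replicate number as a replicate block gave 157, counting Day 8 replicate 1 with Day 3 gave 1094, and leaving out single libraries gave 229 to 1527. At adjusted p of 0.1, DESeq2 gave 49, Day 8 replicate 1 with Day 3 gave 58 and single omissions gave 0 to 15. Of the 10 genes, the replicate block left 2 (Gzmb and Ncr1) and single omissions 1 to 5. The smallest adjusted p of Ncr1 in this comparison was 0.0991, with DESeq2.

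At Day 3 against saline, omitting quantile normalization raised 686 genes to 1043, 106 higher and 937 lower, against 296 and 390, with a median shift of -0.26 over all genes. Estimated counts in edgeR gave 162 higher and 600 lower, and single omissions 259 to 2849 genes. At the adjusted limit, no filter gave 35 and single omissions 0 to 1960. Of the 10 genes, Day 8 replicate 1 with Day 3 gave 2 and single omissions 0 to 2.

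At Day 8 against Day 3, the replicate block gave 422 genes, Day 8 replicate 1 with Day 3 1788 and single omissions 257 to 1641, against 675. At the adjusted limit, no filter gave 28, Day 8 replicate 1 with Day 3 1026 and single omissions 0 to 449. Estimated counts gave 562 higher and 265 lower, against 326 and 349. Of the 10 genes, estimated counts gave 3, the replicate block 0, Day 8 replicate 1 with Day 3 4 and single omissions 0 to 3. With Day 8 replicate 1 counted with Day 3, Ncr1, Gzma and Gzmb passed the adjusted limit (limma, adjusted p = 0.0524, 0.0734 and 0.0751). With no filter Prf1 was called in place of Ncr1.

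Signs turned as follows. Tbx21 at Day 8 against saline was 0.68 with limma and 0.020 with Day 8 replicate 1 counted with Day 3, and at Day 3 it was -0.34 without quantile normalization and -0.63 with estimated counts. Gzmb at Day 3 was -0.016 with estimated counts. With the replicate block, Eomes was -0.18 at Day 8 against saline and -0.048 against Day 3, and Tbx21 was -0.24 against Day 3. Leaving out single libraries moved Tbx21 from -0.91 to 1.84, Il15 from -0.10 to 1.76 and Eomes from -0.12 to 0.99 at Day 8 against saline, Gzmb from -0.66 to 2.31, Tbx21 from -1.23 to 2.39 and Eomes from -0.16 to 0.0039 at Day 3 against saline, and Eomes from -0.047 to 0.90 and Tbx21 from -0.17 to 0.69 at Day 8 against Day 3.

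Same-numbered libraries did not deviate together, with correlations of deviations from -0.17 to 0.011. In a group of 2 libraries the deviations are mirror images, so this check cannot tell whether horns of 1 mouse are paired. The replicate numbers were not taken as pairs, since no label says that they are. Where 1 library is left in a group, it is assumed to vary like the other groups. Called genes of the other lists were refitted only with libraries left out or regrouped. Low counts, from 1 to 6 for Prf1 and from 4 to 22 for Tbx21, limit what these libraries can show.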
